A study of Mus musculus with 5 samples.

Results

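The genes described here encode 9 proteins that carry, take up or store retinoids in the mouse. They are Rbp4, Ttr, Stra6, Lrp1, Lpl, Lrat, Crabp1, Crabp2 and Fabp5. The members were chosen by symbol, and each was read from the array feature that names only that gene, or from the one with the highest mean where several do. All 9 were measured, among 22180 genes in all, and 13 features name only one of them. The study asked how all-trans retinoic acid (ATRA), the active form of vitamin A, acts on hematopoietic stem cells (HSCs), the bone marrow cells that renew the blood. Stem and progenitor cells of C57BL/6 mice, with no engineered allele named, were cultured for 24 h in the presence of ATRA (5 µM) or, as the control, of the solvent DMSO, and HSCs were sorted by flow cytometry after the culture. The sorted cells gave 5 arrays, 3 for DMSO and 2 for ATRA. The labels name neither the age nor the number of mice, nor whether replicates are separate cultures, and the p-values thus refer to the spread of these 5 samples alone, which can be technical.

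Retinol, the alcohol form of vitamin A, travels in blood bound to retinol binding protein, itself held by transthyretin, and can enter cells through the transporter STRA6. Retinyl esters also arrive in lipoprotein particles, which lipoprotein lipase works on and LRP1 helps to take up. Inside the cell, LRAT esterifies retinol for storage, and retinoic acid is held by small cytosolic proteins of the fatty acid binding family, of which CRABP2 hands it to retinoic acid receptors and FABP5 to PPAR-delta.

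Every value is a deposited log2 expression value, in which a difference of 1 is a doubling of the signal. Such values compress the changes of dim features, and levels of different genes are not comparable, because each feature has probes of its own. Differences are ATRA minus DMSO, tested with limma across all genes, and adjusted p-values are Benjamini-Hochberg values over all genes with a threshold of 0.05. The arrays differed in more than the members. Over all features, Pearson's r was 0.966 to 0.978 among the DMSO arrays and 0.73 between the ATRA arrays, and ATRA replicate 2 correlated with the DMSO arrays at only 0.602 to 0.641. The SD over all features was 1.96 to 1.97 in DMSO, 1.77 in ATRA replicate 1 and 1.49 in ATRA replicate 2. Genes high in DMSO were therefore mostly lower in ATRA and genes low in DMSO mostly higher. For this reason each member is set beside the median of the genes in the same class of DMSO mean, 1 log2 unit wide. Values with the level trend removed, meaning that a smooth curve of the difference on the level was subtracted from each array, are given where they bear on a member. Of the 10 HSC markers looked for, 8 were measured. All 8 lay above the median feature (6.07) in DMSO, and 6 were called lower with ATRA, where 15.5% of all genes were. Among them Kit, the stem cell factor receptor, fell by 3.25 (limma adjusted p = 0.0125), beside a median of -2.35 for the 466 genes of its level class. With the level trend removed Kit differed by -0.33 (adjusted p = 0.405), and none of the 8 markers passed, the smallest adjusted p being 0.114. After cyclic loess normalization Kit differed by -1.45 (limma adjusted p = 0.0229). Gata2 (-1.36), Mecom (-1.20), Fgd5 (-0.89) and Tek (-0.95) also stayed called lower there (adjusted p = 0.0113, 0.0435, 0.0457 and 0.0412). Hlf lost its call, and Slamf1 and Procr did not pass. That setting called 1504 of 22180 genes lower, and 10.3% of all genes in either direction. Of markers of other cells, 1 of 8 neutrophil, 1 of 6 T and NK cell and 1 of 4 endothelial genes were higher, where 6.48% of all genes were. Of 5 megakaryocyte genes 1 was lower (Itga2b), where 15.5% of all genes were, and none of 5 B cell and 2 erythroid genes was called. With the level trend removed these calls were lost (Itga2b -0.24, adjusted p = 0.736). In that fit Pf4, a megakaryocyte marker (2.12, adjusted p = 0.0207), and Nkg7, a T and NK cell marker (0.82, adjusted p = 0.0393), were called higher. It called 546 of 22180 genes higher. After cyclic loess Pf4 (1.71), Nkg7 (0.89) and the endothelial markers Cdh5 (0.72) and Pecam1 (0.98) were called higher (limma adjusted p = 0.0461, 0.0192, 0.0401 and 0.0252). No other marker of these cell types was called there, where 771 of 22180 genes were higher.

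The DNA around the annotated starts of Stra6 and Lrat is shown first, because these are the members whose ATRA values did not overlap with DMSO for which a sequence was at hand. The windows run from 250 bases before to 50 after a start and come from RefSeq, build GRCm38.p6, written 5′ to 3′ along the gene. Stra6 is at chr9:58063793-58154004 and has 4 such windows. The one printed, chr9:58133825-58134124 on the plus strand, is the only one of the 9 windows of 5 members that holds either half-site searched. Lrat is at chr3:82892582-82903974, and its window is chr3:82903925-82904224 on the minus strand. Capitals mark a half-site.
Stra6: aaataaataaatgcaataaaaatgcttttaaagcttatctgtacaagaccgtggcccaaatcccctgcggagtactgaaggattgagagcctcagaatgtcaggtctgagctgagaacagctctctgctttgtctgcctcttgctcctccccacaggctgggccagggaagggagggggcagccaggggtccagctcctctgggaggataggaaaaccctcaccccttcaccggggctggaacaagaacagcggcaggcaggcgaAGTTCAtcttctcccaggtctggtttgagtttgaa
Lrat: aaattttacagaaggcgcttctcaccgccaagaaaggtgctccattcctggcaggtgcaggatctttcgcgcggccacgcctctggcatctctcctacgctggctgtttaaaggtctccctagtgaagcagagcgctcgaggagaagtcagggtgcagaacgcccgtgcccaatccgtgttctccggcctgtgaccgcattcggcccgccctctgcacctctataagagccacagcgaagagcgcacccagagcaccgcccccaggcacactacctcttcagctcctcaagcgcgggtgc
The retinoic acid receptor half-sites AGGTCA and AGTTCA were searched on both strands, alone and as direct repeats with 1, 2 or 5 bases between. Of 32851 windows of that length, 27.7% held at least 1 half-site. The match in Stra6 is AGTTCA at bases 266 to 271 of the window, counted from its 5′ end, which is after the start. None of the 9 windows searched held a direct repeat. Of all windows 0.0822%, 0.0396% and 0.0396% did so for spacings of 1, 2 and 5 bases. A match describes these letters and is not evidence of a bound site.

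Across the 9 genes, none passed the test in either direction (limma), where 6.48% of all genes were called higher and 15.5% lower, or 21.9% in all. One member, Stra6, had an unadjusted p under 0.05 and was higher, as were 17.3% of all genes, while 23.0% were lower at that threshold and 40.3% passed it in all. No member passed either after quantile normalization of the deposited values, cyclic loess or centring of each array on its median. These settings called 9.84%, 10.3% and 23.0% of all genes. With the mean of all features per gene no member passed, where 21.6% of all genes did. Of the 4 members left when dim features were dropped none passed, against 33.7% of the genes left. The difference was positive for 7 members, as for 58.0% of all genes, but Crabp1, Ttr and Lrp1 turned negative after quantile normalization, centring, cyclic loess or removal of the level trend, and Lrat after cyclic loess. The median difference was 0.23 over the members and 0.16 over all genes, and it was -0.03 for the members with the level trend removed. For Stra6, Crabp2 and Lrat, 3 members, the ATRA pair was wholly above the DMSO values, as in 33.0% of all genes. No member had the pair wholly below, as 29.2% of all genes did, and the other 6 overlapped, where 62.1% of all genes were separated to one side or the other. ATRA replicate 2 was farther from the DMSO mean than replicate 1 for all 9 members, and outside the DMSO range for all 9, whereas replicate 1 was outside it for 5. Over all genes, replicate 2 was the farther array in 71.3% and outside the DMSO range in 88.9%, and replicate 1 was outside it in 76.8%. In bulk samples such as these, a smaller share of cells of one type and less RNA per cell cannot be told apart.

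**Figure D1:**
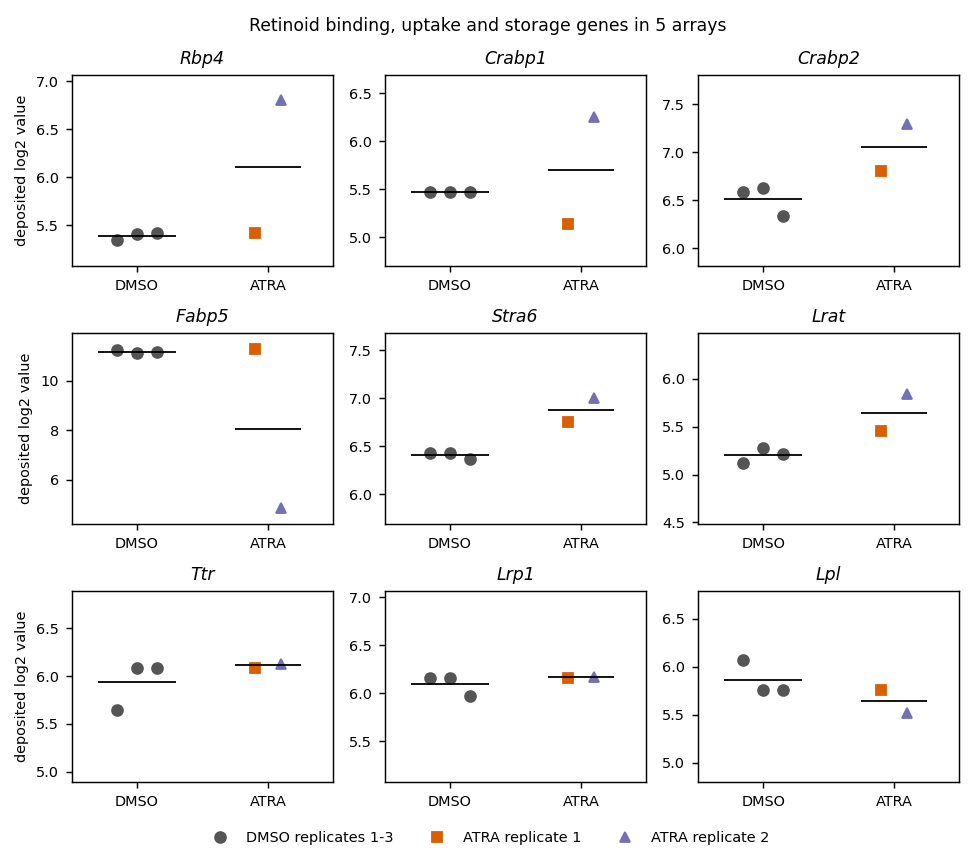
Deposited log2 value of each of the 9 genes in the 3 DMSO arrays (circles), ATRA replicate 1 (square) and ATRA replicate 2 (triangle), with a line at each group mean; each panel has its own axis range. Stra6, Crabp2 and Lrat have both ATRA values above the DMSO values, and Rbp4, Crabp1 and Fabp5 differ mainly in ATRA replicate 2.

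The serum carriers showed no shared change. Rbp4, the blood carrier of retinol (chr19:38116620-38125321), was at 5.34, 5.41 and 5.42 in DMSO and at 5.42 and 6.80 in ATRA replicates 1 and 2. Only ATRA replicate 2 was high. The difference was 0.72 (SE 0.43, 95% interval -0.43 to 1.87, limma adjusted p = 0.25). ATRA replicate 1 differed from the DMSO mean by 0.03 and replicate 2 by 1.41, beside medians of 0.23 and 0.61 for the 5362 genes of its level class (DMSO means of 5 to 6). Without ATRA replicate 1 the difference of 1.41 passed (limma adjusted p = 0.00212), but that fit takes the spread of the DMSO arrays for that of the lone ATRA array and called 64.1% of all genes. Without ATRA replicate 2 the difference was 0.03 (adjusted p = 0.723).

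Ttr, transthyretin, which holds the RBP4 and retinol complex in blood (chr18:20664209-20674326), was at 5.65, 6.08 and 6.08 in DMSO and at 6.08 and 6.13 in ATRA. The groups overlapped, and DMSO replicate 1 was the low array. The difference was 0.17 (SE 0.18, 95% interval -0.32 to 0.66, limma adjusted p = 0.474), below the level median of 0.45, and it was 0.02 without DMSO replicate 1. DMSO replicates 2 and 3 and ATRA replicate 1 hold one identical value of Ttr, with every deposited digit shared. Values repeated between arrays in this way occurred in 6 of the 9 members and in 47.8% of all genes. Both carriers are liver products, and of the 5 hepatocyte markers looked for, including the albumin gene Alb, none was called, with a median level of 5.35 in DMSO.

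The retinol transporter gene Stra6 had the smallest adjusted p of the set, and it did not pass. It was at 6.43, 6.43 and 6.37 in DMSO and at 6.75 and 7.0 in ATRA. Both ATRA arrays were high, and the groups did not overlap. The difference of 0.47 is 1.38-fold (SE 0.13, 95% interval 0.12 to 0.82, limma adjusted p = 0.0692). It exceeded the level median of 0.14 for the 4333 genes of its level class (DMSO means of 6 to 7), and was 0.41 with the level trend removed (adjusted p = 0.164). Stra6 passed without ATRA replicate 1 (0.59, adjusted p = 0.0048) and without ATRA replicate 2 (0.34, adjusted p = 0.0224), fits in which 64.1% and 34.6% of all genes were called. The genes whose 5 values, each centred on its own DMSO mean, lay nearest to those of Stra6 were Mcpt9, Acoxl and Slc6a4, with root mean square differences of 0.0156, 0.0206 and 0.0213 log2 units over the 5 arrays.

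Neither the receptor nor the lipase of the lipoprotein route was called. Lrp1, the endocytic receptor for lipoprotein remnants (chr10:127538157-127621148), was at 6.16, 6.16 and 5.97 in DMSO and at 6.16 and 6.17 in ATRA. The ATRA values lay at the top of the DMSO range. The difference of 0.07 (SE 0.12, 95% interval -0.26 to 0.40, limma adjusted p = 0.661) was the smallest among the members, and it turned to -0.13 with the level trend removed and was 0.01 without DMSO replicate 3.

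Lpl, lipoprotein lipase (chr8:68880555-68906932), was at 6.07, 5.76 and 5.76 in DMSO and at 5.76 and 5.52 in ATRA. ATRA replicate 1 equalled a pair of DMSO arrays to the last digit, and replicate 2 was the lowest of the arrays. The difference was -0.22 (SE 0.17, 95% interval -0.67 to 0.22, limma adjusted p = 0.317), where the level median was 0.45. It was -0.12 without DMSO replicate 1 and -0.10 without ATRA replicate 2. Other settings gave a larger difference, -0.58 after quantile normalization, -0.49 with arrays centred on their medians and -0.68 after cyclic loess. With the level trend removed it was -0.52. None of these passed (limma adjusted p = 0.173, 0.143, 0.146 and 0.266). In ATRA replicate 2, 103 of the 5362 genes of that level had a lower difference than Lpl (-0.35). A second feature naming Lpl ran the other way, with 4.58, 4.48 and 4.40 in DMSO and 4.51 and 5.27 in ATRA (0.40, adjusted p = 0.308 over all features). The direction of Lpl therefore depends on the feature. Macrophages and fat cells express Lpl strongly, and of the 10 monocyte and macrophage markers and the 7 adipocyte and stroma markers none was called, with median differences of 0.14 and 0.35. The median level of the macrophage markers was 6.08 to 6.22 in the DMSO arrays and 6.37 and 6.33 in ATRA, and their part in the values of Lpl was not tested.

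The storage enzyme followed the trend of its level. Lrat, which makes retinyl esters, was at 5.12, 5.28 and 5.21 in DMSO and at 5.45 and 5.84 in ATRA. Both ATRA arrays were high and the groups did not overlap. The difference was 0.44 (SE 0.17, 95% interval 0.00 to 0.88, limma adjusted p = 0.124), close to the level median of 0.45, and 0.00 with the level trend removed. On leaving out ATRA replicate 1 it was 0.64 (adjusted p = 0.0149), again in the fit on a lone ATRA array that called 64.1% of all genes, and without ATRA replicate 2 it was 0.24 and did not pass (adjusted p = 0.134).

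The cytosolic carriers of retinoic acid differed most from one another. Crabp2, the carrier to the retinoic acid receptors (chr3:87948693-87953372), was at 6.58, 6.63 and 6.33 in DMSO and at 6.80 and 7.29 in ATRA. Both ATRA arrays were high and the groups did not overlap. The difference of 0.54 is 1.45-fold (SE 0.21, 95% interval -0.01 to 1.09, limma adjusted p = 0.130). It was as large, 0.53, with the level trend removed (adjusted p = 0.192), and the level median was 0.14. Without ATRA replicate 1 it was 0.78 (adjusted p = 0.0376), in the fit on a lone ATRA array that called 64.1% of all genes, and without ATRA replicate 2 it was 0.29 and did not pass (adjusted p = 0.290).

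Crabp1, a relative linked to holding and breaking down retinoic acid (chr9:54764748-54773110), was at 5.47 in all 3 DMSO arrays, the same to the last digit, and at 5.14 and 6.25 in ATRA. The ATRA arrays lay on opposite sides of DMSO. The difference was 0.23 (SE 0.35, 95% interval -0.71 to 1.17, limma adjusted p = 0.606). Taken alone, ATRA replicate 1 gave a difference of -0.33 and replicate 2 one of 0.79. In such a fit the gene's own spread comes from the DMSO arrays alone, whose SD was 0.00. That spread is moderated by limma with the spread of all genes. No direction can be given for Crabp1.

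Fabp5, the carrier linked to PPAR-delta (chr3:10012585-10016610), was at 11.24, 11.14 and 11.17 in DMSO and at 11.31 and 4.84 in ATRA. ATRA replicate 1 lay just above DMSO, and replicate 2 lay far below. The mean difference of -3.11 (SE 1.97, 95% interval -8.33 to 2.11, limma adjusted p = 0.262) describes neither array. In ATRA replicate 2 the difference of -6.34 was the lowest among the 133 genes of its level class (DMSO means of 11 to 12), whose median was -3.55 there. In ATRA replicate 1 these genes had a median of -1.07, while Fabp5 differed by 0.12 and 33 of the 133 genes were higher. With the level trend removed, Fabp5 was 2.22 above DMSO in ATRA replicate 1 and 2.28 below it in replicate 2, and the difference was -0.03. Without ATRA replicate 2 the value was 0.12 (adjusted p = 0.21), and without ATRA replicate 1 it was -6.34 (adjusted p = 0.00163).

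The other features naming Fabp5 did not all show this. Feature 17548717 had nearly the same values as the chosen feature 17548238, with 11.10, 11.06 and 11.07 in DMSO and 11.29 and 4.69 in ATRA. Feature 17396056 went from 8.17, 8.19 and 8.17 to 8.12 and 6.86, a smaller drop in the same array. Feature 17404073 was at 4.08, 4.14 and 4.14 in DMSO and at 4.0 and 4.41 in ATRA, with no drop. The differences were -3.09, -0.69 and 0.09, and none passed over all features (limma adjusted p = 0.299, 0.272 and 0.722). Whether features read near-identical copies of Fabp5 was not tested.

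**Figure D2:**
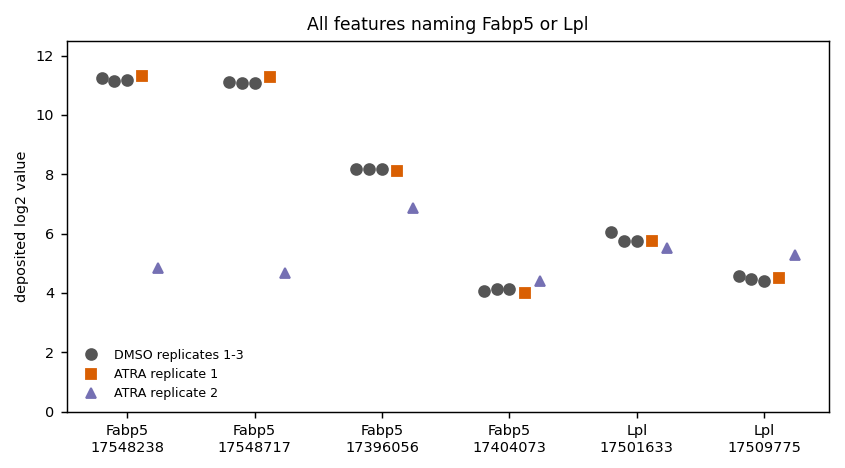
Deposited log2 value of each array feature that names only Fabp5 (4 features) or only Lpl (2 features), in the DMSO arrays (circles), ATRA replicate 1 (square) and ATRA replicate 2 (triangle). ATRA replicate 2 falls from about 11 to 4.84 and 4.69 in the leftmost pair of Fabp5 features, while ATRA replicate 1 stays near DMSO in all 4.

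Because CRABP2 and FABP5 serve different receptors, the value of Crabp2 minus that of Fabp5 was compared within arrays. It was -4.66, -4.51 and -4.85 in DMSO and -4.50 and 2.45 in ATRA. ATRA replicate 1 lay at the edge of the DMSO values, and replicate 2 stood apart. The shift of 3.65 had an exact permutation p of 0.1 (two-sided), the smallest that 3 against 2 arrays can give. It was 0.17 without ATRA replicate 2, 7.12 without ATRA replicate 1 and 0.56 with the level trend removed (exact permutation p = 0.700). With feature 17404073 for Fabp5 it was 0.45 (exact permutation p = 0.1). The size of the shift thus rests on ATRA replicate 2 and on the feature. Of the 4 receptor genes these carriers serve, Rara, Rarb, Rarg and Ppard, none was called. Ppard, at 7.60, 7.92 and 7.57 in DMSO and 7.13 and 6.90 in ATRA, differed by -0.68 (limma adjusted p = 0.0561), and Rarb by 0.49 (limma adjusted p = 0.0965). The medians of their level classes were -0.64 and 0.14. With the level trend removed Ppard differed by 0.10 (adjusted p = 0.763) and Rarb by 0.35 (adjusted p = 0.213).

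**Figure D3:**
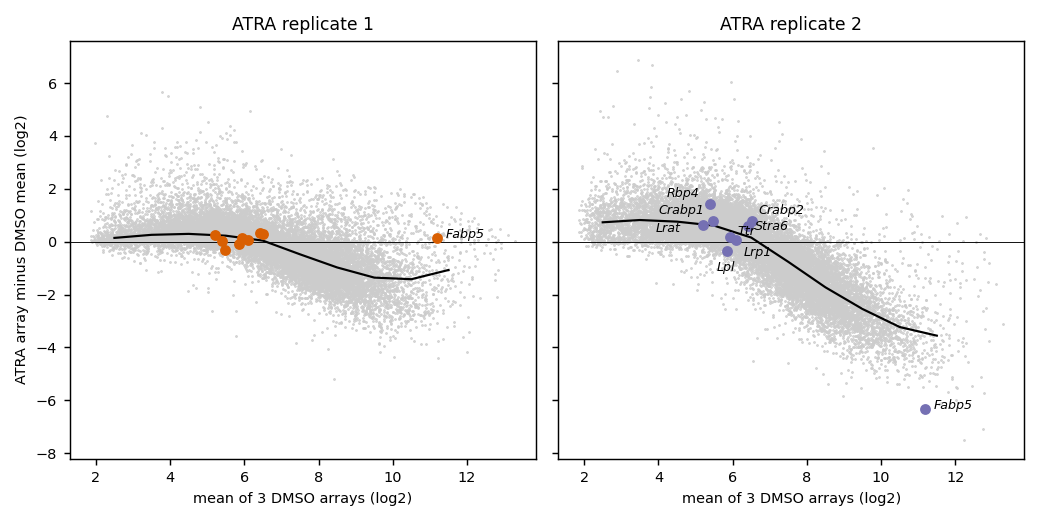
Difference of ATRA replicate 1 (left) and ATRA replicate 2 (right) from the mean of the 3 DMSO arrays, in log2 units, against that mean, for all 22180 genes (grey) and the 9 members (coloured); the line joins medians of level classes 1 log2 unit wide. In both arrays high genes lie below 0, more so in replicate 2, and Fabp5 lies above the line in replicate 1 (0.12) and below it in replicate 2 (-6.34).

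In order of their differences, Rbp4 (0.72), Crabp2 (0.54), Stra6 (0.47) and Lrat (0.44) were the highest, Crabp1, Ttr and Lrp1 lay between 0.07 and 0.23, and Lpl and Fabp5 were negative. The 95% intervals of neighbouring genes in this order overlapped. The interval of Stra6 was the only one to lie wholly above 0. With the level trend removed, Crabp2 (0.53) and Stra6 (0.41) were the highest, Rbp4 was at 0.31 and Lpl at -0.52, and none passed, where 3.42% of all genes were called.

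**Figure D4:**
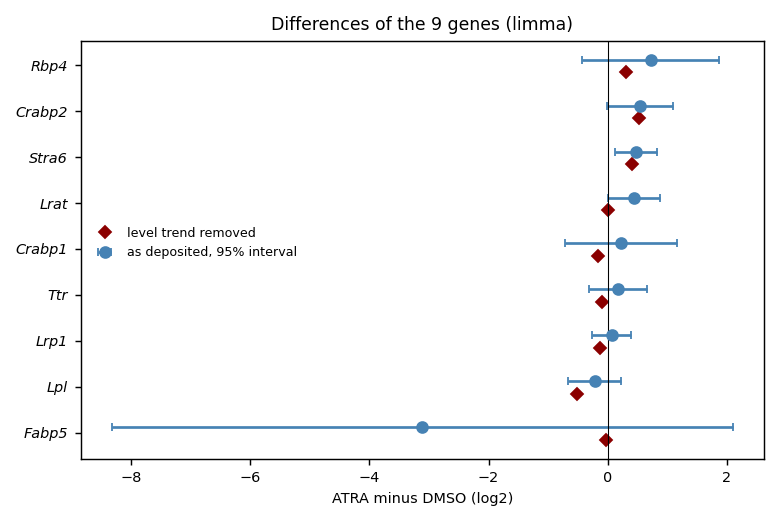
ATRA minus DMSO difference of each member in log2 units, as deposited (circles, with 95% limma intervals) and with the level trend removed (diamonds). The interval of Fabp5, -8.33 to 2.11, is the widest, and Crabp2 and Stra6 keep differences of 0.53 and 0.41 when the trend is removed.

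Among other genes of the same pathways, 14 of 85 measured passed, or 3 higher and 11 lower, against 21.9% of all genes called, 6.48% higher and 15.5% lower. Of 11 cytosolic retinol and fatty acid binding relatives, 2 rose, none fell and 9 did not pass (median 0.58). Fabp4, the fatty acid binding protein of fat cells, macrophages and endothelium, was at 5.49, 4.70 and 5.18 in DMSO and at 6.72 and 7.21 in ATRA, a rise of 1.84 (SE 0.30, limma adjusted p = 0.0229). Pmp2, the myelin member of the family, was at 4.29, 4.28 and 4.49 in DMSO and 5.50 and 5.47 in ATRA and rose by 1.13 (limma adjusted p = 0.011). Both differences became smaller with the level trend removed, 1.39 and 0.63, and lost their calls (adjusted p = 0.0748 and 0.147). Fabp4 kept its call after quantile normalization and after cyclic loess (limma adjusted p = 0.0489 and 0.0440). Pmp2 lost its call in both of these settings (limma adjusted p = 0.0670 and 0.117). Beside Fabp4, 1 of 4 endothelial markers was higher, Cdh5, with 6.10, 6.34 and 6.26 in DMSO and 6.90 and 7.22 in ATRA. The share of all genes called higher was 6.48%. The other endothelial markers were not called. Pecam1 differed by -0.32, where the median of its level class was -1.33. With the level trend removed Pecam1 differed by 1.02 (adjusted p = 0.0658) and Cdh5 by 0.69 (adjusted p = 0.0655). After cyclic loess both were called higher (0.98 and 0.72, limma adjusted p = 0.0252 and 0.0401), as were 771 of 22180 genes. Kdr differed by 0.06 as deposited and by -0.07 after cyclic loess. Emcn differed by 2.12 in ATRA replicate 1 and -0.67 in replicate 2. Of the adipocyte and stroma markers, 0 of 7 were called. The median level of the endothelial markers was 6.82 to 6.84 in DMSO and 7.87 and 6.94 in ATRA, and that of the adipocyte and stroma markers 5.24 to 5.28 in DMSO and 5.44 and 6.16 in ATRA. Their part in the rise of Fabp4 was not tested. Fabp9 differed by 0.54 (adjusted p = 0.0745).

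Of 21 relatives of LRP1 and other carriers and receptors, none rose, 5 fell and 16 did not pass (median -0.22). Scarb1, the scavenger receptor for high density lipoprotein and carotenoids, was at 9.61, 9.72 and 9.74 in DMSO and at 6.94 and 5.16 in ATRA. It fell by 3.64 (SE 0.55, limma adjusted p = 0.019), and by 1.52 with the level trend removed (adjusted p = 0.0274). Both ATRA arrays were far below DMSO, and this was the one lower call kept by that fit among the 85 genes. Lrp5, a WNT co-receptor, fell by 2.57 (adjusted p = 0.00627) and Lrp10 by 1.89 (adjusted p = 0.0113), but with the level trend removed they differed by -0.48 and 0.18 and did not pass.

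Of 20 genes of retinyl ester formation, ester hydrolysis and lipid droplets, none rose, 3 fell and 17 did not pass (median 0.16). Dgat1, which can also esterify retinol, was at 7.30, 7.60 and 7.66 in DMSO and at 5.38 and 6.03 in ATRA and fell by 1.82 (SE 0.25, limma adjusted p = 0.016). With the level trend removed it differed by -1.16 (adjusted p = 0.121). It kept its call after quantile normalization (-1.87, limma adjusted p = 0.0191) and cyclic loess (-1.75, adjusted p = 0.0170). Plin3, a lipid droplet coat protein, fell by 0.85 (adjusted p = 0.0142) and Abhd5, the activator of the lipase ATGL, by 1.09 (adjusted p = 0.0482), and neither passed with the level trend removed. Of 14 partners of lipoprotein lipase, none rose, 2 fell and 12 did not pass. They were Furin, a protease that cleaves the lipase (-1.99, adjusted p = 0.0148), and Lmf1, which helps it fold (-0.87, adjusted p = 0.0294), while the inhibitor Angptl4 differed by 0.97 (adjusted p = 0.0573). Furin and Lmf1 differed by -0.19 and 0.11 with the level trend removed.

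Of 15 genes of retinoic acid synthesis and breakdown, 1 rose, 1 fell and 13 did not pass (median 0.53). The rise was that of Bco2, which cleaves carotenoids (0.54, limma adjusted p = 0.0421), and the fall that of Retsat, which saturates retinol (-1.57, limma adjusted p = 0.0288). With the level trend removed they differed by 0.18 (adjusted p = 0.445) and -0.70 (adjusted p = 0.15), and both calls were lost. In that fit 1 other gene of this list, not Dhrs3, was called higher, where 3.42% of all genes were called in either direction. Dhrs3, which reduces retinal to retinol and so supplies the substrate of LRAT, was at 6.27, 6.51 and 6.00 in DMSO and at 7.46 and 6.99 in ATRA, a difference of 0.96 (SE 0.23, adjusted p = 0.0515). The 14 calls among the pathway genes were lost when any 1 DMSO array was left out, as were those of all genes. Without ATRA replicate 2, the calls of Fabp4, Abhd5, Lmf1 and Retsat were lost as well (limma adjusted p = 0.0808, 0.0842, 0.0614 and 0.0729).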

How the data were processed

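The 5 arrays hold biotin-labelled cRNA made from RNA of sorted HSCs, per the labels' protocols. The authors deposited log2 expression values, 1 per feature and array, and the submitters' processing notes name RMA, oligo 1.36.1 and limma 3.28.20 without saying what each did. Which array annotation and genome build they used is not given in the sources used here. Precision is limited by the 5 arrays, and scanner files were not used. Of 41345 features, 23521 name 1 gene in the platform table, giving 22180 genes after symbols were updated by gene identifier for 23328 features (RefSeq table, GRCm38.p6). Gene positions come from that table. ATRA was compared with DMSO by limma 3.58.1 (R 4.3.3, lmFit, eBayes, 3 residual and 1.52 prior degrees of freedom) on 2 group means. No filter on low values was used. The fit was first checked on simulated data with the same noise in both groups. That check held no level trend and no outlying array, and cannot show how the fit deals with these. Of the 9 members, 4 had a mean at or above the median feature (6.07). Named genes are the 9 members, the 3 smallest p-values of each pathway list and the 3 genes nearest to the member with the smallest p. Marker genes and second features were named after their values were seen. The members, lists and rules were chosen with earlier results of these data known. Sequences with no entry in the tables used are not shown, and no Ttr window was searched or shown.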

Additional observations from a re-analysis of the deposited data

How the results depend on the processing

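No member passed the limma test at an adjusted p of 0.05 in any setting that kept all 5 arrays, and Stra6 alone was under 0.1 (1 member). Leaving out arrays gave 0 to 6 members, with 6 without ATRA replicate 1 (5 higher, 1 lower) and 2 without ATRA replicate 2 (Stra6 higher, Crabp1 lower). Their median difference ranged from 0.12 to 0.59 when arrays were left out, and was 0.27 without dim features. It was -0.08 after quantile normalization of the deposited values and -0.04 with arrays centred on their medians. After cyclic loess it was -0.23, and with the level trend removed -0.03. Crabp1 was at 0.79 without ATRA replicate 1 and reversed to -0.33 without ATRA replicate 2, -0.08 (quantile), -0.04 (centred), -0.26 (cyclic loess) and -0.16 (trend removed). Ttr reversed to -0.12, -0.10, -0.23 and -0.09 and Lrp1 to -0.18, -0.20, -0.29 and -0.13 in those 4 settings, in the same order. Lrat was at -0.06 after cyclic loess. Fabp5 was at -6.34 without ATRA replicate 1, 0.12 without ATRA replicate 2 and 0.09 by feature 17404073, and Lpl at 0.09 by the mean of its features and 0.40 by feature 17509775, the features being chosen after seeing the data. Crabp2 minus Fabp5 kept its sign in all settings run, from 0.17 to 7.12.

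Over all genes, 4865 passed (29.5% of them higher). Leaving out arrays gave 0 to 14207, quantile normalization 2182 (20.1% higher), cyclic loess 2275, the trend removed 758 (72.0% higher), an adjusted p of 0.1 7755, and centring 5102 (11% higher), which moved the median of all genes from 0.16 to -0.11. Of the pathway genes 14 passed, with 0 to 50 when arrays were left out, 6 after quantile normalization, 4 after cyclic loess, 2 with the trend removed and 32 at an adjusted p of 0.1. Array weights gave 0 genes and 0 pathway genes (limma, 4377 and 13 at an unadjusted p under 0.05). Without DMSO replicate 1, 2 or 3, 0 genes passed (5991, 6065 and 5907 at an unadjusted p under 0.05). With the trend removed, Lrp10 (0.18), Plin3 (0.07), Lmf1 (0.11), Ppard (0.10), Rara (0.02) and Mcpt9 (-0.05) reversed, and Mcpt9 (-0.06) and Slc6a4 (-0.03) did so after cyclic loess. The causes were not tested.

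The replicate number as a block gave 0 genes and 0 pathway genes (limma, 5412 and 21 at an unadjusted p under 0.05), with 1 residual degree of freedom, and it changed no sign of a member. Deviations from the group means correlated across genes at 0.134 for number 1 and 0.0983 for number 2, and with 2 shared numbers these do not show pairing.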
